A study of Mus musculus with 36 samples.

Results

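The glucocorticoid receptor and 9 genes that supply its ligand, fold it or respond to it were followed in mouse liver. They are Nr3c1, the receptor, with Fkbp5, Tsc22d3, Sgk1, Hsd11b1, Dusp1, Zbtb16, Ddit4, Errfi1 and Serpina6. A probe belonged to a gene when the gene name beside it on the array equalled one of these symbols, which gave 18 probes of 10 genes among 56605 probes of 37061 named genes. All 10 genes were measured: the brightest probe of each was well above background on all 36 arrays, and 16 of the 18 probes entered the tests. The 2 others, 1 of Sgk1 and 1 of Tsc22d3, were well above background on no array.

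Liver RNA of 36 male C57Bl/6J mice was hybridised to 1-colour Agilent arrays, 1 mouse to an array. AAKO mice lack ATGL (Pnpla2), the enzyme that opens triglyceride breakdown, in white adipose tissue, and CTRL mice are their controls. The promoter that drives the deletion and the ages are not given in the sources used here. Each genotype was studied in 3 states with 6 mice in each: fed ad libitum, fasted for 24 h, or given a single gavage of CL316243, a beta 3 adrenergic agonist that acts on adipocytes, at 3 mg/kg in carboxymethyl cellulose. The gavage fell at Zeitgeber time 10, and livers of every group were taken at Zeitgeber time 16, after lights off. The titles label the CL316243 mice as fed, and no gavage is described for the other fed mice or the fasted mice. Fasted and CL316243 mice thus differ in food as well as in the agonist and its gavage. The deletion lies in another tissue, so liver transcripts give no check of it. The labels place all fed mice in experiment 2 and all fasted and CL316243 mice in experiment 1, so in every comparison with fed mice the state and the experiment cannot be told apart. Each comparison of genotypes within a state, and that of CL316243 against fasting, lies inside a single experiment.

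The glucocorticoid receptor waits in the cytosol with heat shock chaperones, binds corticosterone in mice, moves to the nucleus and switches genes on or off at response elements. Liver uses it in fasting to raise glucose production and amino acid breakdown, usually together with cAMP and FoxO signals. How much hormone reaches it depends on corticosteroid-binding globulin in plasma, which Serpina6 encodes, and on the enzyme made from Hsd11b1, which regenerates active hormone inside the cell. Several of the receptor's target genes answer other signals as well, so their transcripts are no measure of the receptor alone.

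Promoter sequence is shown for the 3 genes whose start regions hold a full palindromic site. The RefSeq table of build GRCm38.p6 lists 15 promoters of 7 of the 10 genes, each the 250 bases before a transcript start, and none for Nr3c1, Zbtb16 and Serpina6. Searched on both strands, the receptor's arm AGAACA was present in 4 of the 15 and in 16.1% of all 32851 promoters. These 4 belong to 2 of the 7 genes, Sgk1 and Tsc22d3, and 6 of the 15 promoters are of Sgk1, so the 15 are not separate genes. The full receptor palindrome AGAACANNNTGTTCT, which contains that arm in each orientation, was present in 1 promoter of the 15 and in 3 of all 32851, or 0.00913%. The CREB palindrome TGACGTCA, the cAMP response element, was present in 2 of the 15 and in 1.55% of all, and its arm TGACG, which the palindrome contains, in 4 of the 15 and in 17.8% of all. In the fifth listed promoter of Sgk1 (chr10:21993640-21993889, plus strand) 174 bases lie between the receptor palindrome and the start. In Dusp1 (chr17:26508473-26508722, minus strand) the CREB palindrome ends 135 bases before the start, and in the second listed promoter of Errfi1 (chr4:150854820-150855069, plus strand) 43 bases before it. Capitals mark the palindromes and the arms, and each line runs 5′ to 3′ toward the start.
Sgk1: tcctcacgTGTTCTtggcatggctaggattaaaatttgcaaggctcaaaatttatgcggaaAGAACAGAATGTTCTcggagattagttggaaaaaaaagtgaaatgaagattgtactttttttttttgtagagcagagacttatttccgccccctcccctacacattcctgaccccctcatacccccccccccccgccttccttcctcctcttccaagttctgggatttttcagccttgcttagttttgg
Dusp1: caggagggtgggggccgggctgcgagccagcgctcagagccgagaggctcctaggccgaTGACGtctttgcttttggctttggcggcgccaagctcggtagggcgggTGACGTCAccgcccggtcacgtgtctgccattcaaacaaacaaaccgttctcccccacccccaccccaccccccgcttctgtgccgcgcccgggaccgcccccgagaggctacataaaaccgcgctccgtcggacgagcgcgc
Errfi1: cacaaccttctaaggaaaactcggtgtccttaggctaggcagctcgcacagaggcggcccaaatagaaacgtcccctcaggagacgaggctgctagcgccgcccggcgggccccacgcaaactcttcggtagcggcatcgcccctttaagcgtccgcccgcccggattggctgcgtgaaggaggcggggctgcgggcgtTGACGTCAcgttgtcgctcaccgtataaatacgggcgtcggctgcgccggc
A match describes letters in the window, and the lack of a match elsewhere says only that these letters are not in that window.

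Levels are log2 processed signals minus the 75th percentile of the array, so a level of 0 equals that percentile and levels of different genes are not compared. Where 3 levels stand together they are the lowest, median and highest of the 6 mice of a group. Differences come from limma fitted over all 24096 genes that passed the filter on dim probes, with the wash batch as a term, and a gene was called at a Benjamini-Hochberg adjusted p under 0.05. The p-values measure the spread between these mice, and their number, 6 per group, limits the precision. On each array 33128 to 37200 probes were well above background. CTRL fasted replicate 2 stood apart on the first principal component (41.79% of the variance), at 80.9 against 16.7 to 28.7 for the 5 other fasted CTRL mice and 102 to 110 for fasted AAKO mice. Results that rest on that library are given with and without it.

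In fed mice the genotypes did not differ detectably in any of the 10 genes, with 0 called against a background of 0.0789% of all genes called in either direction. The differences ran from -0.63 for Zbtb16 to 0.23 for Sgk1, and adjusted p ran from 0.742 to 0.969. The median difference of the 10 genes was -0.18 and that of all genes 0.00.

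After a 24 h fast, 8 of the 10 genes were higher in AAKO than in CTRL liver and 1, Hsd11b1, was lower. Over all genes 21.3% were called higher and 28.1% lower in this comparison. The median difference of the 10 was 0.87 on the log2 scale and that of all genes -0.04. In 5 of the 10, Ddit4, Dusp1, Sgk1, Zbtb16 and Serpina6, every fasted AAKO mouse lay above every fasted CTRL mouse, against 21.3% of all genes whose groups did not overlap. Fkbp5 was the 1 gene not called.

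**Figure D1:**
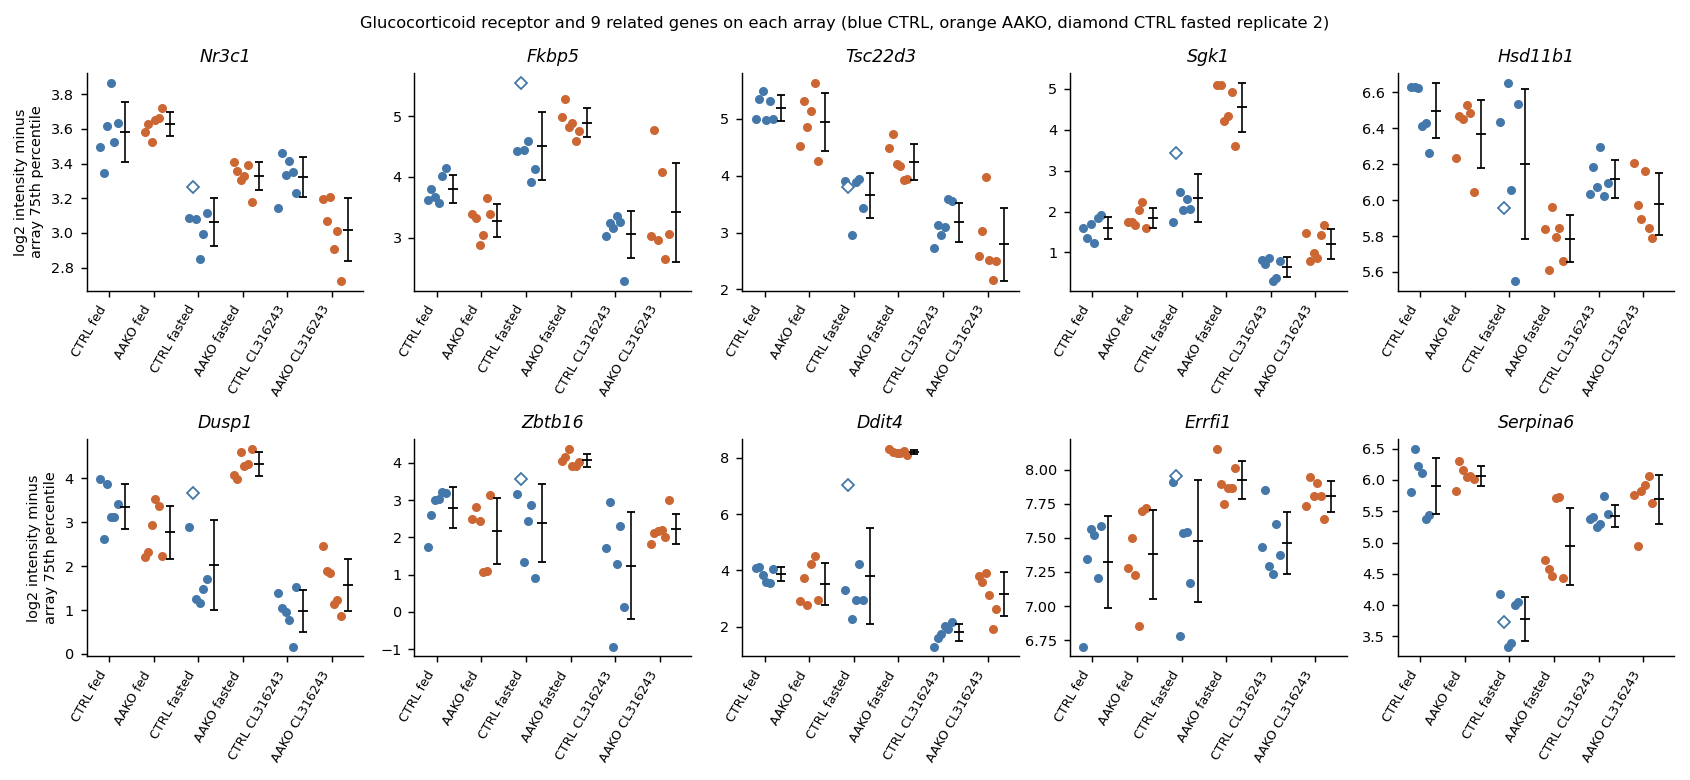
Level of each of the 10 genes (log2 processed signal minus the array's 75th percentile, brightest probe, vertical axis) on every array, by group along the horizontal axis, with bars at the group mean, CTRL in blue and AAKO in orange, and CTRL fasted replicate 2 as a diamond. In the Ddit4 panel the 6 fasted AAKO mice sit between 8.11 and 8.31, above the diamond at 7.04, and the 5 other fasted CTRL mice sit at 4.23 or below.

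Hsd11b1 encodes 11 beta-hydroxysteroid dehydrogenase type 1, which turns 11-dehydrocorticosterone back into corticosterone. It was the 1 gene of the 10 that was lower in fasted AAKO than in fasted CTRL liver. Fasted mice read 5.55, 6.25 and 6.65 in CTRL and 5.61, 5.82 and 5.96 in AAKO, overlapping, with a difference of -0.41 ± 0.13 (1.33-fold, adjusted p = 0.00695). In wash batch 1 alone the adjusted p was 0.0811 and in wash batch 2 alone 0.096, and with the 2 fasted groups fitted alone it was 0.075. Fed mice read 6.26, 6.52 and 6.63 in CTRL and 6.04, 6.46 and 6.53 in AAKO, and CL316243 mice 6.02, 6.09 and 6.30 in CTRL and 5.79, 5.93 and 6.21 in AAKO. Neither genotype difference there passed the test, and both pairs overlapped.

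Serpina6 encodes the plasma globulin that carries corticosterone, and liver is its main source. It was lower in fasted than in fed mice of both genotypes, and by less in AAKO mice. Fed mice read 5.38, 5.96 and 6.49 in CTRL and 5.83, 6.05 and 6.31 in AAKO, while fasted mice read 3.34, 3.86 and 4.18 in CTRL and 4.44, 4.65 and 5.73 in AAKO. The fall from fed to fasted was 4.37-fold in CTRL (adjusted p = 2.97e-09) and 2.19-fold in AAKO mice (adjusted p = 4.56e-05), and the genotype difference in that fall was 1.00 ± 0.31 (adjusted p = 0.0136). The call on that genotype difference was lost in either wash batch alone. Fasted AAKO mice thus lay above all fasted CTRL mice, by 1.16 ± 0.22 (2.23-fold, adjusted p = 5.89e-05), and by 0.69 and 1.62 in wash batch 1 and 2 alone, both called. CL316243 mice read 5.25, 5.40 and 5.75 in CTRL and 4.94, 5.79 and 6.07 in AAKO, and the genotypes overlapped.

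Nr3c1, the receptor itself, moved by small amounts, in opposite directions by genotype in the 2 treated states. Its levels were 2.85, 3.08 and 3.27 in fasted CTRL and 3.18, 3.34 and 3.41 in fasted AAKO mice, against 3.15, 3.34 and 3.46 in CL316243 CTRL and 2.73, 3.04 and 3.21 in CL316243 AAKO mice. Both pairs overlapped. The receptor was 1.20-fold higher in fasted AAKO liver (0.26 ± 0.08, adjusted p = 0.00771) and 1.24-fold lower in CL316243 AAKO liver (-0.31 ± 0.08, adjusted p = 0.00566). In wash batch 1 and 2 alone these were 0.22 and 0.31, the second passing, and -0.41 and -0.18, the first passing. The genotype difference between these states was 0.57 ± 0.12 (adjusted p = 0.000281), and 0.63 and 0.49 in wash batch 1 and 2 alone, where only the first passed (adjusted p = 0.0216 and 0.0699). By the median the brightest Nr3c1 probe was highest in fed mice, at 3.35, 3.57 and 3.86 in CTRL and 3.52, 3.64 and 3.72 in AAKO. A second Nr3c1 probe gave 0.52 ± 0.10 in the fasted and -0.36 ± 0.10 in the CL316243 comparison of genotypes, both called. Its median was highest in fasted AAKO mice, at 2.99 against 2.84 in fed CTRL and 2.92 in fed AAKO mice, and its change from fed to fasted AAKO mice was 0.05 ± 0.10 and not called (adjusted p = 0.64).

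Fkbp5 encodes a co-chaperone that lowers the receptor's affinity for hormone and is itself a target of the receptor. Its levels overlapped by genotype in all 3 states: 3.57, 3.74 and 4.15 in fed CTRL, 2.88, 3.36 and 3.65 in fed AAKO, 3.91, 4.43 and 5.55 in fasted CTRL, 4.59, 4.85 and 5.29 in fasted AAKO, 2.29, 3.20 and 3.35 in CL316243 CTRL and 2.65, 3.04 and 4.76 in CL316243 AAKO mice. The fasted genotype difference was 0.38 ± 0.26 (adjusted p = 0.242), and 0.59 without CTRL fasted replicate 2 (adjusted p = 0.0546). It was 0.80 in wash batch 1 alone and -0.03 in wash batch 2 alone, neither called. With the mean of all 3 probes in place of the brightest it was 1.21 and passed (adjusted p = 0.00038). Fkbp5 was higher in fasted than in CL316243 liver 2.74-fold in CTRL (adjusted p = 4.85e-05) and 2.73-fold in AAKO mice (adjusted p = 1.97e-05). On the brightest probe that increase differed between genotypes by -0.00 ± 0.37, and by 0.70 and -0.72 in wash batch 1 and 2 alone, neither called. Relative to the brightest, the increase of the second probe differed by -0.40 in CTRL and 0.57 in AAKO mice. For the third probe these values were 0.31 and 2.30.

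Ddit4 encodes an inhibitor of mTORC1 that is induced by glucocorticoids, by low energy and by other stresses. Its levels were 2.29, 3.13 and 7.04 in fasted CTRL mice and 8.11, 8.18 and 8.31 in fasted AAKO mice. The groups did not overlap, the fasted AAKO mice lay close together, and the 7.04 belonged to CTRL fasted replicate 2. The difference was 4.40 ± 0.47 (SE), a 21.1-fold higher signal in AAKO liver (adjusted p = 3.92e-09). Without that library it was 5.05 ± 0.32. Within wash batch 1 alone it was 4.99 and within wash batch 2 alone 3.81, both called.

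In fed mice Ddit4 read 3.55, 3.95 and 4.13 in CTRL and 2.78, 3.34 and 4.50 in AAKO, and these groups overlapped. After CL316243 it read 1.30, 1.83 and 2.18 in CTRL and 1.93, 3.37 and 3.92 in AAKO. Its difference between genotypes after CL316243 was 1.41 ± 0.48 (2.65-fold, adjusted p = 0.0282) with overlapping groups, a call that was lost when AAKO CL316243 replicate 1, 2 or 3 or CTRL CL316243 replicate 1 was left out, and in either wash batch alone. The genotype difference was larger in fasted than in fed mice by 4.76 ± 0.67 (adjusted p = 1.79e-06), and larger in fasted than in CL316243 mice by 3.00 ± 0.67 (adjusted p = 0.000809).

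Dusp1 encodes a phosphatase that switches off MAP kinases. Its levels were 1.17, 1.59 and 3.67 in fasted CTRL mice and 3.98, 4.30 and 4.66 in fasted AAKO mice, with no overlap. The signal was 4.91-fold higher in fasted AAKO liver, a log2 difference of 2.29 ± 0.35 (adjusted p = 2.1e-06). It was 2.94 and 1.65 in wash batch 1 and 2 alone, both called. Fed mice of both genotypes overlapped, at 2.62, 3.27 and 3.99 in CTRL and 2.20, 2.63 and 3.53 in AAKO. CL316243 mice read 0.17, 1.00 and 1.51 in CTRL and 0.86, 1.54 and 2.45 in AAKO, a difference of 0.61 ± 0.35 that did not pass (adjusted p = 0.216). Dusp1 fell 2.51-fold from fed to fasted CTRL mice and rose 2.93-fold from fed to fasted AAKO mice. The test of that difference between genotypes gave 2.88 ± 0.50 (adjusted p = 3.29e-05).

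Errfi1 encodes MIG6, a feedback inhibitor of the EGF receptor. Its brightest probe varied little, at 6.70, 7.44 and 7.58 in fed CTRL, 6.86, 7.39 and 7.72 in fed AAKO, 6.78, 7.54 and 7.95 in fasted CTRL, 7.75, 7.88 and 8.15 in fasted AAKO, 7.23, 7.40 and 7.85 in CL316243 CTRL and 7.63, 7.81 and 7.95 in CL316243 AAKO mice. The fasted genotype difference was 0.44 ± 0.16 (1.36-fold, adjusted p = 0.025) with overlapping groups. It was lost without CTRL fasted replicate 3 or 6 or AAKO fasted replicate 1, and it was 0.73 in wash batch 1 alone and 0.16 in wash batch 2 alone.

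Sgk1 encodes a kinase of ion transport and survival signalling and is a long-known glucocorticoid target. Of its 6 listed promoters only the fifth, printed above, holds the receptor palindrome. Fasted CTRL mice read 1.74, 2.19 and 3.43 and fasted AAKO mice 3.60, 4.63 and 5.11. The groups did not overlap, and the signal was 4.61-fold higher in AAKO liver (2.21 ± 0.23, adjusted p = 3.03e-09). In wash batch 1 and 2 alone the difference was 2.02 and 2.39, both called. Fed mice read 1.23, 1.64 and 1.91 in CTRL and 1.59, 1.75 and 2.24 in AAKO. The CL316243 levels were 0.31, 0.76 and 0.87 (CTRL) and 0.79, 1.21 and 1.68 (AAKO), a difference of 0.57 ± 0.23 with adjusted p = 0.0752. By its median Sgk1 was lowest in CL316243 mice in both genotypes. Its genotype difference was larger after fasting than after CL316243 by 1.64 ± 0.33 (adjusted p = 0.000275).

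Tsc22d3 encodes GILZ, an anti-inflammatory leucine zipper protein induced by glucocorticoids. Fasted CTRL mice read 2.96, 3.84 and 3.93 and fasted AAKO mice 3.91, 4.18 and 4.72, which met at the edge. The difference of 0.59 ± 0.24 (1.50-fold, adjusted p = 0.0443) was near the threshold and was lost when CTRL fasted replicate 3 or 6 or AAKO fasted replicate 1, 2, 3 or 4 was left out, and without the filter on dim probes (adjusted p = 0.0674). It was 0.85 and 0.32 in wash batch 1 and 2 alone, and the first alone passed. Fed mice had the highest medians, at 4.98, 5.16 and 5.48 in CTRL and 4.26, 4.99 and 5.62 in AAKO, and CL316243 mice were lowest, at 2.73, 3.12 and 3.59 in CTRL and 2.17, 2.55 and 3.98 in AAKO. After CL316243 the genotype difference was -0.38 ± 0.24 (adjusted p = 0.272). Its genotype difference was larger after fasting than after CL316243 by 0.97 ± 0.34 (adjusted p = 0.0295).

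Zbtb16 encodes the transcriptional repressor PLZF, which glucocorticoids induce in many cell types. Its levels were 0.90, 2.66 and 3.57 in fasted CTRL mice and 3.91, 4.05 and 4.37 in fasted AAKO mice. The AAKO mice formed a narrow group above all CTRL mice, and the difference was 1.69 ± 0.49 (3.23-fold, adjusted p = 0.00428). It was 2.49 in wash batch 1 alone and 0.90 in wash batch 2 alone, where it did not pass (adjusted p = 0.23). The other groups were wide and overlapped by genotype, at 1.75, 3.01 and 3.23 in fed CTRL, 1.07, 2.48 and 3.13 in fed AAKO, -0.93, 1.50 and 2.94 in CL316243 CTRL and 1.82, 2.15 and 3.00 in CL316243 AAKO mice. After CL316243 the genotype difference was 0.99 ± 0.49 (adjusted p = 0.143).

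**Figure D2:**
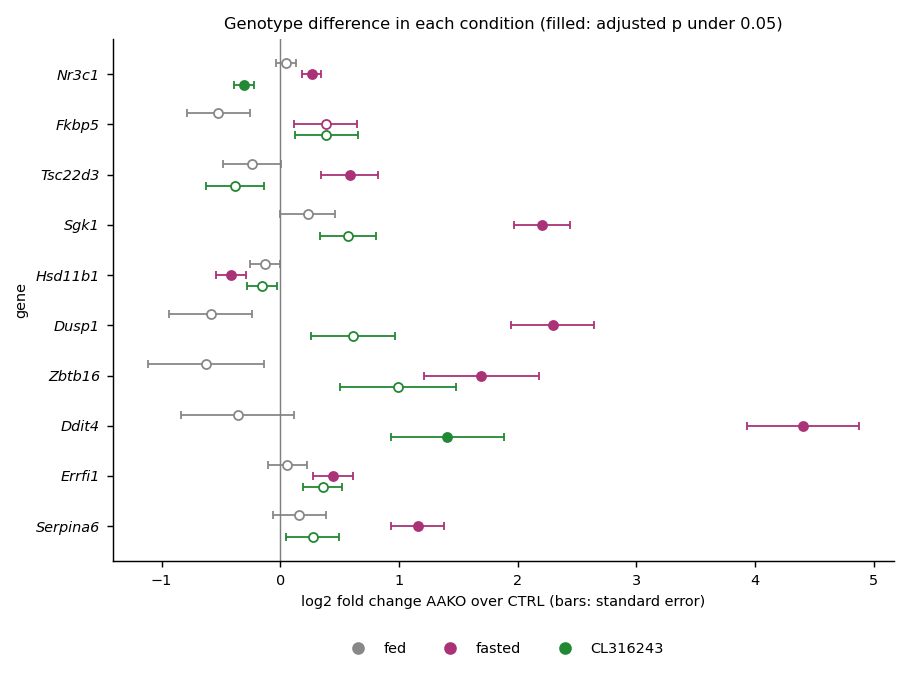
Log2 fold change of AAKO over CTRL (horizontal axis, bars are standard errors, 6 mice per group) for each of the 10 genes in fed, fasted and CL316243 mice. The fasted point of Ddit4 is farthest right at 4.40, and the fed points lie between -0.63 and 0.23.

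Bulk liver RNA holds several cell types, and fewer cells of a type and less RNA per cell cannot be told apart in it. Hepatocyte markers were well above background in all groups, and their summed level ran from 11.56 to 11.79 in fasted CTRL and 11.58 to 11.66 in fasted AAKO mice. In the fasted comparison 5 of 8 neutrophil markers were higher in AAKO liver and 0 lower, with a median of 1.42, and 6 of 8 without CTRL fasted replicate 2. The summed neutrophil level was 6.77 to 7.40 in fasted CTRL and 7.13 to 7.77 in fasted AAKO mice, and no neutrophil marker was below background on all arrays of either group. Of the other lists, 3 of 8 endothelial, 3 of 8 stellate and 2 of 6 adipocyte markers were higher, and 4 of 8 hepatocyte, 2 of 6 cholangiocyte, 1 of 6 T, NKT and NK cell and 1 of 6 adipocyte markers lower. A further 2 hepatocyte markers were higher, and 0 of 8 Kupffer cell and macrophage and 0 of 5 B cell markers were called. The part of these cell types in the changes of the 10 genes was not tested. Without CTRL fasted replicate 2, 1 of 8 Kupffer cell and macrophage markers was higher, and 3 of 6 cholangiocyte and 2 of 6 adipocyte markers were lower. After CL316243, 3 of 8 hepatocyte and 2 of 8 endothelial markers were higher in AAKO liver, 1 of 6 cholangiocyte markers was lower, and 0 of 8 neutrophil markers were called. The shares of all genes called in these comparisons, against which the marker counts are read, are 21.3% higher and 28.1% lower after fasting and 13.5% and 11.3% after CL316243.

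After CL316243 the genotypes differed in 2 of the 10 genes, Ddit4 being higher and Nr3c1 lower in AAKO liver, as given above, beside those 13.5% and 11.3% of all genes. The median difference of the 10 genes was 0.37 and that of all genes 0.03. The genotype difference of the change from fed to fasted was called for 5 of the 10 genes, all with a larger value in AAKO mice, against 14.5% of all genes in that direction and 19.4% in the other. These were Ddit4, Dusp1, Zbtb16 with 2.32 ± 0.69 (adjusted p = 0.00881), Sgk1 with 1.98 ± 0.33 (adjusted p = 2.25e-05), and Serpina6. In fits of a single wash batch the Zbtb16 call was lost in 1 batch and the Serpina6 call in both. Those of Ddit4, Dusp1 and Sgk1 held in each. Fkbp5 had 0.91 ± 0.37 (adjusted p = 0.0603), which became 1.11 ± 0.35 and passed without CTRL fasted replicate 2 (adjusted p = 0.0126). The genotype difference of the change from fed to CL316243 was called for Nr3c1 alone, at -0.35 ± 0.12 (adjusted p = 0.0423), against 6.39% of all genes with a larger and 4.53% with a smaller value in AAKO mice. That call was lost in 16 of the 24 fits that left out 1 array.

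Fasting and CL316243 both release fatty acids from adipose tissue in control mice, and their comparison stays within experiment 1. The CL316243 mice were labelled as fed, so food and the agonist change together in it. Between these states 4 of the 10 genes, Fkbp5, Sgk1, Dusp1 and Ddit4, were higher in fasted CTRL liver and 2, Nr3c1 and Serpina6, were lower. Over all genes 19.2% were called higher and 17.6% lower in fasted CTRL mice. The median of the 10 was 0.76 and that of all genes 0.01. The groups did not overlap for 4 of the 10, Fkbp5, Sgk1, Ddit4 and Serpina6, against 17.8% of all genes. In AAKO mice 7 of the 10 were higher in fasted liver and 1, Serpina6, was lower, against 26.1% and 33.8% of all genes, and the groups did not overlap for Sgk1, Dusp1, Zbtb16 and Ddit4, against 37.4% of all genes. The median of the 10 there was 1.44 and that of all genes -0.08. Markers of liver cell types moved between these states too: 6 of 8 endothelial and 4 of 8 stellate markers were higher in fasted liver of each genotype and 1 stellate marker was lower, and 5 of 8 neutrophil and 3 of 5 B cell markers were higher in fasted AAKO liver. Of 8 hepatocyte markers 2 were higher and 3 lower in fasted CTRL liver, and 2 and 5 in fasted AAKO liver. In each genotype 2 of 6 cholangiocyte markers were lower. The summed endothelial level was 4.40 to 5.50 in fasted and 4.10 to 5.05 in CL316243 CTRL mice, and 5.17 to 5.53 and 4.68 to 5.26 in AAKO mice. The summed stellate level was 6.71 to 7.06 and 5.61 to 6.35 in CTRL, and 7.05 to 7.41 and 5.94 to 6.48 in AAKO mice, and no marker of either list was below background on all arrays of a group. Their part in the changes of the 10 genes was not tested.

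**Figure D3:**
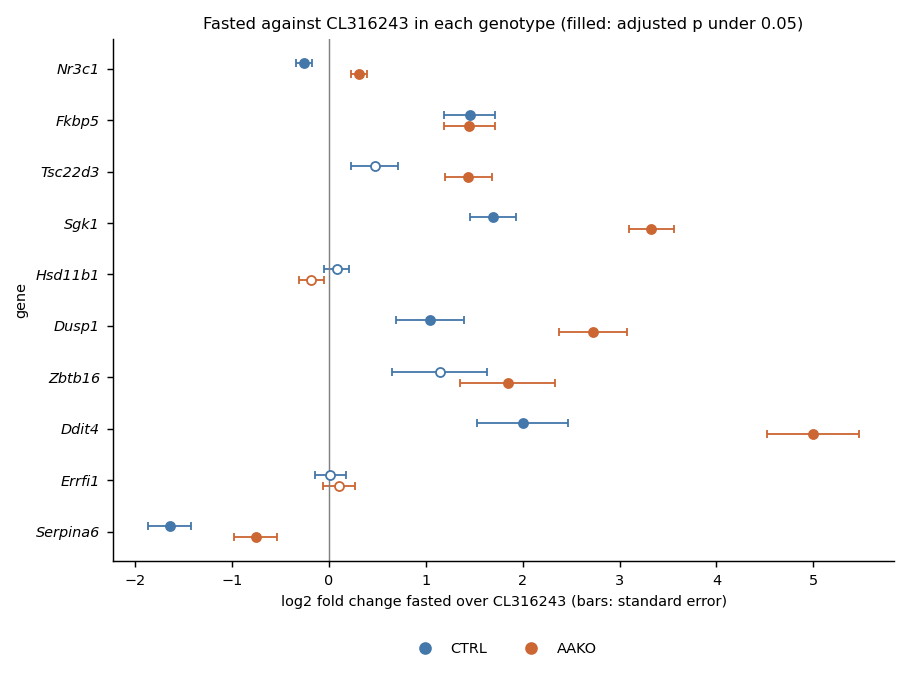
Log2 fold change of fasted over CL316243 mice (horizontal axis, bars are standard errors, 6 mice per group) for each of the 10 genes in CTRL and AAKO mice. Ddit4 lies at 2.00 in CTRL and 4.99 in AAKO mice, and Serpina6 is left of 0 in both, at -1.64 and -0.76.

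In CTRL mice Ddit4 was 4.00-fold higher in fasted than in CL316243 liver (2.00 ± 0.47, adjusted p = 0.00106), a value of 1.35 without CTRL fasted replicate 2 (adjusted p = 0.00148). In AAKO mice it was 31.9-fold higher (4.99 ± 0.48, adjusted p = 1.24e-10). The 6 fasted AAKO mice lay above all CL316243 AAKO mice by more than 4 log2 units. Sgk1 was 3.23-fold higher in CTRL (1.69 ± 0.23, adjusted p = 8.02e-07) and 10.05-fold higher in AAKO mice (3.33 ± 0.23, adjusted p = 1.87e-13). Dusp1 was 2.07-fold higher in CTRL (1.05 ± 0.35, adjusted p = 0.0181), a call lost without CTRL fasted replicate 2 (0.72, adjusted p = 0.083), without CTRL fasted replicate 1 or without CTRL CL316243 replicate 5. In AAKO mice it was 6.63-fold higher (2.73 ± 0.35, adjusted p = 5.65e-08), with no overlap.

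Zbtb16 was 3.59-fold higher in fasted than in CL316243 AAKO liver (adjusted p = 0.00159), and in CTRL mice its difference was 1.14 ± 0.49 (adjusted p = 0.0648). Tsc22d3 was 2.71-fold higher in AAKO mice (1.44 ± 0.24, adjusted p = 5.87e-06), and in CTRL mice the difference was 0.47 ± 0.24 (adjusted p = 0.129). Serpina6 was lower in fasted liver, 3.12-fold in CTRL (adjusted p = 5.78e-07) and 1.69-fold in AAKO mice (adjusted p = 0.00414). Its fall was smaller in AAKO mice by 0.88 ± 0.32 (adjusted p = 0.03). Nr3c1 turned by genotype, being lower by 0.26 ± 0.08 in CTRL (adjusted p = 0.0124) and higher by 0.31 ± 0.08 in AAKO mice (adjusted p = 0.00148). The CTRL value did not pass in the authors' value table (-0.18, adjusted p = 0.0752), in wash batch 1 alone (-0.34, adjusted p = 0.0794) or in wash batch 2 alone (-0.17, adjusted p = 0.294). Hsd11b1 and the brightest probe of Errfi1 were called in neither genotype.

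The genotype difference of this contrast was called for 6 of the 10 genes, all with a larger value in AAKO mice, against 12.6% of all genes in that direction and 19.7% in the other. These were Nr3c1, Tsc22d3, Sgk1, Dusp1, Ddit4 and Serpina6, Dusp1 with 1.68 ± 0.50 (adjusted p = 0.00909). In wash batch 1 and 2 alone the values were 3.85 and 2.02 for Ddit4 and 1.15 and 2.30 for Sgk1, and each passed in 1 of the batches. Tsc22d3 gave 1.56 and 0.15, and Serpina6 0.58 and 1.12, the latter passing in neither. The Tsc22d3 and Serpina6 calls were each lost in 6 of 24 fits that left out 1 array.

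The comparisons with fed mice join the state to the experiment, and those of 1 genotype share their fed arrays. From fed to fasted CTRL mice 2 of the 10 genes were higher and 4 lower, against 20.8% and 22.4% of all genes. Fkbp5 rose 1.63-fold (adjusted p = 0.0305) and Sgk1 1.66-fold (adjusted p = 0.0108), and both calls were lost without CTRL fasted replicate 2, at 0.50 (adjusted p = 0.121) and 0.52 (adjusted p = 0.0518). Nr3c1 fell 1.43-fold (adjusted p = 4.63e-06) and Tsc22d3 2.90-fold (adjusted p = 4.24e-06), beside Dusp1 and Serpina6, while Ddit4 was at -0.08 ± 0.47 (adjusted p = 0.911), and at -0.73 ± 0.32 without that library (adjusted p = 0.071). By the brightest probe, all 10 genes were called from fed to fasted AAKO mice, 6 higher and 4 lower, against 27.7% and 35.7% of all genes. Ddit4 rose 25.7-fold (4.68 ± 0.47, adjusted p = 3.17e-10), Sgk1 6.55-fold, Zbtb16 3.73-fold and Fkbp5 3.05-fold, and the groups did not overlap for any of these, as for 42.6% of all genes. The 4 that fell on that probe were Nr3c1 1.23-fold, Hsd11b1 1.50-fold, Tsc22d3 1.64-fold and Serpina6. On the second probes the fed and fasted AAKO means were 3.27 and 4.01 for Tsc22d3 and 2.94 and 3.00 for Nr3c1, so neither fell. The second probes of Fkbp5, Zbtb16 and Errfi1 read higher in fasted AAKO mice, as the brightest did.

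By the brightest probe, CL316243 mice read lower than fed mice in most of the 10 genes. In CTRL mice 0 were higher and 8 lower, against 10.4% and 12.9% of all genes. Dusp1 was 5.19-fold lower (adjusted p = 9.21e-06), Ddit4 4.23-fold (adjusted p = 0.00154), Tsc22d3 4.02-fold (adjusted p = 4.47e-07) and Sgk1 1.94-fold lower (adjusted p = 0.00294), with no overlap in any of these 4, where 12.3% of all genes did not overlap. The Fkbp5 call was lost in 7 of 12 fits that left out 1 array, Hsd11b1 in 4, and Nr3c1 and Zbtb16 in 2 each. On the second probes the fed and CL316243 CTRL means were 0.10 and 0.15 for Fkbp5 and 2.76 and 2.77 for Nr3c1. The second probes of Tsc22d3 and Zbtb16 did read lower after CL316243, at means of 3.60 and 1.35 and of -2.43 and -3.49, the Zbtb16 groups overlapping. The third Fkbp5 probe also read lower, at -5.14 and -5.68, but its groups overlapped near the floor. It was well above background on 5 of 6 fed and 3 of 6 CL316243 CTRL arrays. In AAKO mice 1, Errfi1, was higher and 5 were lower, against 15.7% and 15.6% of all genes. Leaving out 1 array lost the Errfi1 call in 8 of 12 fits and the Sgk1 call in 6. Tsc22d3 was 4.43-fold lower (adjusted p = 5.16e-08) and Nr3c1 1.53-fold lower (adjusted p = 8.34e-07), both without overlap as for 15.1% of all genes, while Ddit4 was at -0.31 (adjusted p = 0.668). Markers of other liver cells were lower in the same comparisons: 6 of 8 Kupffer cell and macrophage, 7 of 8 endothelial and 5 of 8 stellate markers in CTRL mice, and 7, 5 and 4 of 8 in AAKO mice, with 0 higher in these lists. The summed Kupffer cell and macrophage level was 5.27 to 6.46 in fed and 4.13 to 5.79 in CL316243 CTRL mice, and 5.96 to 6.77 and 5.15 to 5.79 in AAKO mice. The summed endothelial level was 5.08 to 5.67 in fed CTRL and 5.38 to 5.66 in fed AAKO mice, the summed stellate level 6.34 to 6.79 and 6.36 to 6.71. No marker of these 3 lists was below background on all arrays of a group, and their part in the lower levels of the 10 genes was not tested.

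Probes of 1 gene did not always move together. The first 30 of 60 bases are shown for the probes of Tsc22d3 and Errfi1, and no base is in capitals. The second probe of each was well above background on all 36 arrays and moved apart from the brightest. Both also held for the second Fkbp5 probe, given below, whose bases are not shown. The Tsc22d3 probes lie at chrX:137074094-137074153 (brightest) and chrX:137074801-137074860 (second), both minus strand, 707 bases apart, and the Errfi1 probes at chr4:150242886-150242945 (brightest) and chr4:150229849-150229908 (second), both plus strand, 13037 bases apart, all in build mm9 as the array annotation gives them. In each gene the second probe is the upstream one in the direction of transcription, and whether a probe is exonic or intronic was not analysed here.
Tsc22d3 brightest: ctgctgtacgactccaggatttggatttgg
Tsc22d3 second: acagcccagtgtggggttacagctttggga
Errfi1 brightest: ctccgcactgtgtgtacagtattggacaaa
Errfi1 second: gccttttcctctccagaaacatgattcttt

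The second Errfi1 probe read 2.07, 2.42 and 2.57 in fed CTRL and 2.11, 2.33 and 2.48 in fed AAKO mice, rose to 3.27, 3.95 and 5.17 in fasted CTRL and 4.93, 5.19 and 5.57 in fasted AAKO mice, and was 2.30, 2.62 and 2.84 in CL316243 CTRL and 2.39, 2.61 and 2.92 in CL316243 AAKO mice. Both fasted groups lay above all fed and CL316243 mice. Fasted over CL316243 it was higher by 1.44 ± 0.17 in CTRL (adjusted p = 4.82e-08) and 2.56 ± 0.17 in AAKO mice (adjusted p = 4.94e-14), where the brightest probe gave 0.02 ± 0.16 and 0.10 ± 0.17. Fasted AAKO over CTRL it gave 1.21 ± 0.17 (adjusted p = 4.95e-07). The difference between the probes within each array was then compared between groups of 6 by a two-sided exact permutation test, whose smallest p here is 0.00216, over 24 tests. For Errfi1 it was 1.43 in CTRL and 2.47 in AAKO for fasted over CL316243 (each exact p = 0.00216, adjusted 0.00648), and 0.76 for the fasted genotypes (exact p = 0.0108, adjusted 0.0288).

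The second Tsc22d3 probe read 3.31, 3.52 and 3.94 in fed CTRL, 2.49, 3.34 and 3.84 in fed AAKO, 1.99, 2.65 and 3.08 in fasted CTRL, 3.55, 3.92 and 4.76 in fasted AAKO, 0.92, 1.30 and 1.68 in CL316243 CTRL and 0.44, 0.89 and 2.00 in CL316243 AAKO mice. Here every fasted AAKO mouse lay above every fasted CTRL mouse, by 1.42 ± 0.23 (adjusted p = 6.63e-06). From fed to fasted AAKO mice this probe was higher by 0.74 (adjusted p = 0.00626), while the brightest was lower by 0.71 ± 0.24 (adjusted p = 0.0112). The mean of all Tsc22d3 probes, including the dimmest, which was well above background on no array, gave 0.07 (adjusted p = 0.773). The within-array difference of the Tsc22d3 probes was 0.83 for the fasted genotypes, 0.77 for fasted over CL316243 in CTRL and 1.49 in AAKO mice (each exact p = 0.00216, adjusted 0.00648).

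The third and dimmest Fkbp5 probe was well above background on all fasted arrays, but on only 3 of 6 CTRL and 4 of 6 AAKO arrays after CL316243. It read -5.70, -4.29 and -1.33 in fasted CTRL and -1.51, -1.39 and -1.19 in fasted AAKO mice, and was higher in AAKO by 2.55 ± 0.41 (adjusted p = 5.43e-06), where the second gave 0.71 ± 0.34 (adjusted p = 0.087). The groups overlapped at the single CTRL value of -1.33. Its within-array difference from the brightest probe was 2.17 for the fasted genotypes and 2.30 for fasted over CL316243 in AAKO mice (each exact p = 0.00216, adjusted 0.00648). For the second Fkbp5 probe it was 0.57 for fasted over CL316243 in AAKO mice (exact p = 0.00216, adjusted 0.00648) and -0.63 for the CL316243 genotypes (exact p = 0.0152, adjusted 0.0365). For Nr3c1 and Zbtb16 no difference between the probes passed in these 4 comparisons (smallest exact p = 0.0736). With 6 mice per group this does not show that the probes move alike. The Nr3c1 difference was 0.25 for the fasted genotypes and 0.23 for fasted over CL316243 in AAKO mice (each exact p = 0.0736, adjusted 0.136). Changes from fed mice were not among these tests.

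**Figure D4:**
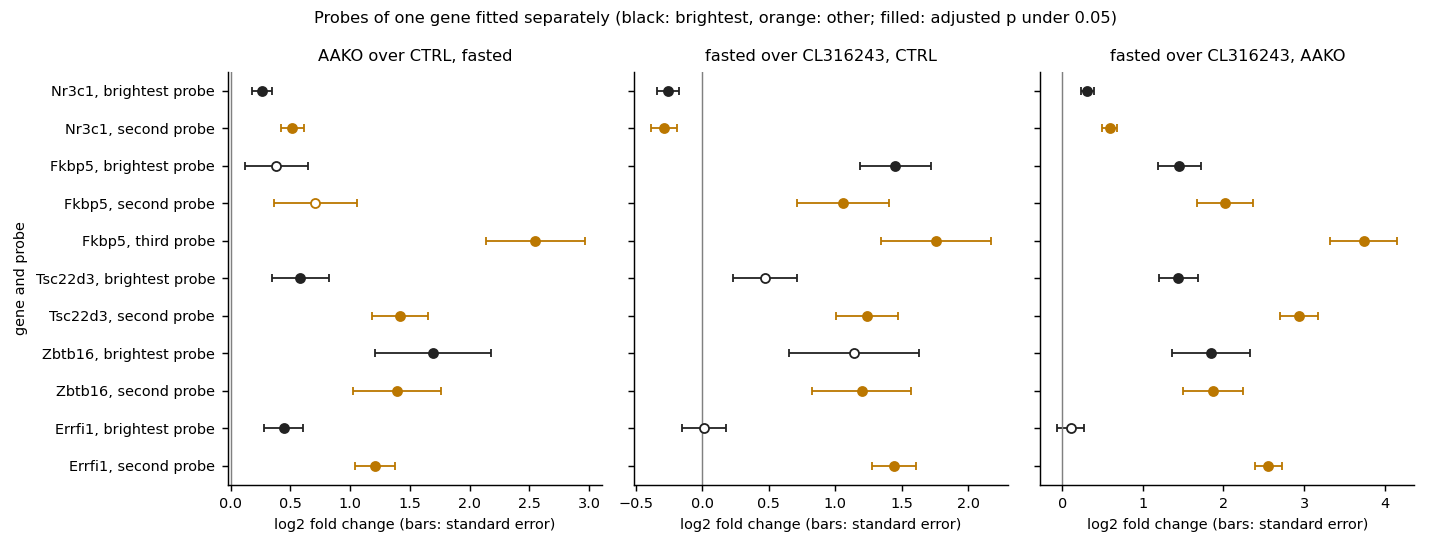
Log2 fold change (horizontal axis, bars are standard errors, 6 mice per group) of each tested probe of the 5 genes with several, fitted as probes, with the brightest in black, the others in orange and calls filled. The second Errfi1 probe sits at 2.56 for fasted over CL316243 AAKO mice where the brightest sits at 0.10.

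Other genes of the pathway were read from lists chosen for their published link to the receptor, with earlier results of these data known. Their counts are therefore a description and not an independent test. Of 25 other receptor targets, 0 were called between fed genotypes, 18 were higher and 0 lower in fasted AAKO liver, and 7 were higher and 2 lower in CL316243 AAKO liver. Over all genes 0.0789% were called between fed genotypes, 21.3% were higher and 28.1% lower after fasting, and 13.5% and 11.3% after CL316243. The list's median was 1.13 in the fasted and 0.36 in the CL316243 comparison, where all genes had -0.04 and 0.03. Without CTRL fasted replicate 2 the fasted count was again 18 higher and 0 lower, with a median of 1.22. The highest in the fasted comparison were Lpin1, a phosphatidate phosphatase, with 3.20 ± 0.48 (adjusted p = 1.33e-06), and Usp2, a clock-linked deubiquitinase, with 2.14 ± 0.33 (adjusted p = 2.77e-06). The lowest of the 18 were Tdo2, the tryptophan-degrading enzyme, with 0.57 ± 0.13 (adjusted p = 0.000575), and the transcription factor Cebpd with 0.77 ± 0.26 (adjusted p = 0.0128). After CL316243 the ends were metallothionein Mt2 at 3.13 ± 0.94 (adjusted p = 0.0136) and Igfbp1, a binding protein of insulin-like growth factors, at 2.32 ± 0.59 (adjusted p = 0.0036), against Foxo3 at -0.48 ± 0.18 (adjusted p = 0.0462) and Angptl4, an inhibitor of lipoprotein lipase, at -1.55 ± 0.24 (adjusted p = 9.15e-06).

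**Figure D5:**
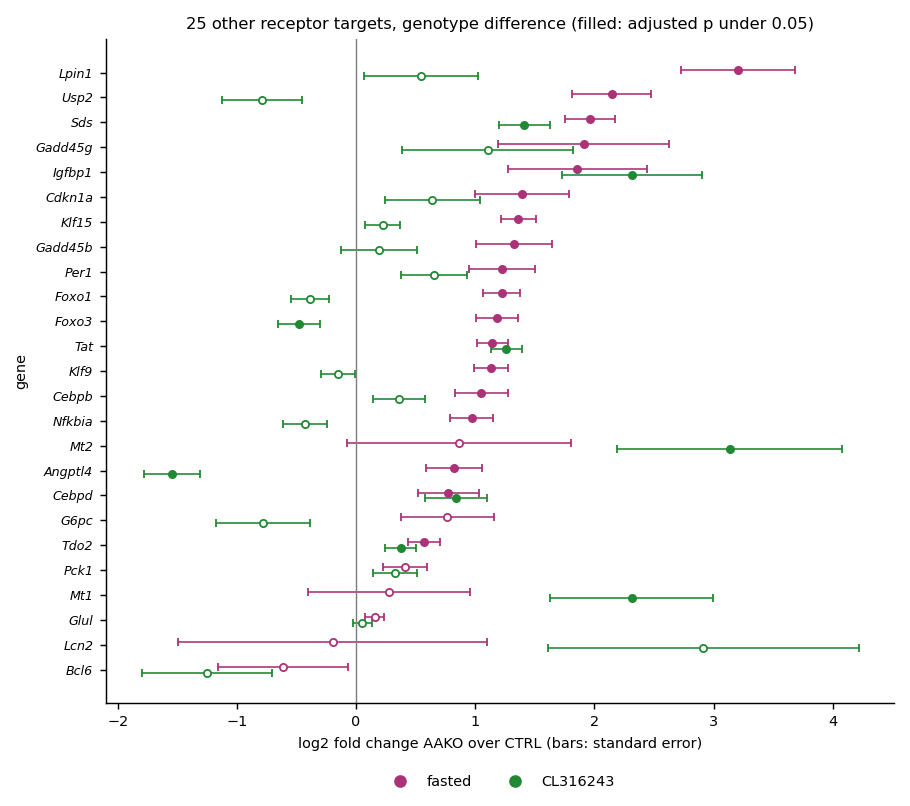
Log2 fold change of AAKO over CTRL (horizontal axis, bars are standard errors, 6 mice per group) for the 25 other receptor targets in fasted and CL316243 mice, with calls filled. Lpin1 is farthest right in the fasted set at 3.20, and Angptl4 lies at 0.82 in fasted and -1.55 in CL316243 mice.

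In fasted over CL316243 CTRL mice 8 of these 25 were higher and 4 lower, against 19.2% and 17.6% of all genes. The list's median was 0.47 against 0.01 for all genes. Without CTRL fasted replicate 2 the counts were 6 higher and 4 lower, with a median of 0.16. The cell cycle inhibitor Cdkn1a (5.89 ± 0.40, adjusted p = 1.12e-12) and Gadd45b (3.23 ± 0.32, adjusted p = 1.75e-09) were highest, and the repressor Bcl6 (-1.64 ± 0.54, adjusted p = 0.0174) and Usp2 (-1.74 ± 0.33, adjusted p = 9.15e-05) lowest. Usp2 thus was lower in fasted than in CL316243 CTRL liver and higher in fasted AAKO than in fasted CTRL liver.

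Of 22 receptor chaperones and coregulators, 4 were higher and 10 lower in fasted AAKO liver, with a median of -0.14, against 21.3% and 28.1% of all genes and their median of -0.04. Without CTRL fasted replicate 2 the counts were 5 and 10. Crtc2, a coactivator of CREB, was highest at 0.87 ± 0.08 (adjusted p = 6.74e-11), then the Mediator subunit Med1 at 0.46 ± 0.07 (adjusted p = 5.97e-07). The mineralocorticoid receptor Nr3c2 was lowest at -1.06 ± 0.19 (adjusted p = 3.1e-05), then the corepressor subunit Hdac3 at -0.84 ± 0.07 (adjusted p = 6.16e-11). After CL316243, 2 were higher and 5 lower with a median of -0.04, against 13.5% and 11.3% of all genes and a median of 0.03, between Crtc2 at 0.29 and Med1 at 0.24, and Crebbp at -0.48 and Nr3c2 at -0.91. In fasted over CL316243 CTRL mice 3 were higher and 7 lower with a median of -0.11, against 19.2% and 17.6% of all genes and a median of 0.01. Nrip1 was among the higher at 0.52, and the lowest were Nr3c2 at -0.57 and the co-chaperone Fkbp4 at -0.85.

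Of 10 genes of glucocorticoid metabolism and export 9 passed the filter, Hsd11b2 being the exception. The shares of all genes called, given above, are the background of their counts: 21.3% higher and 28.1% lower between fasted genotypes. In fasted AAKO liver 2 were higher, H6pd at 0.87 ± 0.13 (adjusted p = 9.27e-07) and Ugt2b1 at 0.51 ± 0.17 (adjusted p = 0.0137), and 3 were lower, the lowest being Cyp3a11 at -1.08 ± 0.22 (adjusted p = 0.000114) and the steroid 5 alpha-reductase Srd5a1 at -0.91 ± 0.19 (adjusted p = 0.000121). H6pd supplies the cofactor on which the enzyme of Hsd11b1 depends. In fasted AAKO liver H6pd was higher and Hsd11b1 lower than in fasted CTRL liver. After CL316243 the exporter Abcb1a alone was called, at -0.59 ± 0.20 (adjusted p = 0.0312). In fasted over CL316243 CTRL mice 0 were higher and 5 lower, from H6pd at -0.39 and Ugt2b1 at -0.46 to Srd5a2 at -1.41 and Akr1c6 at -2.08. The medians of this list were 0.04, -0.24 and -0.39 in these 3 comparisons, where those of all genes were -0.04, 0.03 and 0.01. Without CTRL fasted replicate 2 the first turned to -0.23 and the last was -0.53, with the same counts of calls.

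Within groups, pairs of the 10 genes were compared mouse by mouse, as deviations from the group mean over 36 arrays, for 45 pairs with 100000 permutations each. Zbtb16 and Errfi1 correlated with Pearson r = 0.61 (permutation p = 0.0006, adjusted 0.027) and Spearman rho = 0.52 (permutation p = 0.00511, adjusted 0.115), and r was 0.61 again without the 2 mice farthest from the median of Zbtb16. It was 0.54 in wash batch 1 and 0.70 in wash batch 2. Dusp1 and Ddit4 had r = 0.64 (permutation p = 0.0038, adjusted 0.0855) and rho = 0.46 (permutation p = 0.0193, adjusted 0.174), with r = 0.43 without the 2 farthest mice and also 0.43 without CTRL fasted replicate 2. Tsc22d3 and Ddit4 had r = 0.50 (permutation p = 0.00718, adjusted 0.108) and rho = 0.59 (permutation p = 0.0008, adjusted 0.036), with r = 0.45 without the 2 farthest mice and 0.70 without CTRL fasted replicate 2. So 1 pair passed by Pearson, another by Spearman, and 0 by both.

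Among the 24086 other genes tested, those most like Nr3c1 by the same measure were Marchf7 (r = 0.85), Mcts1 (r = 0.80) and Cul4b (r = 0.80). For Fkbp5 they were Slc16a5 (r = 0.80), St3gal5 (r = 0.79) and Retreg1 (r = 0.79), and for Tsc22d3 the transcripts AK033778 (r = 0.76) and BM934693 (r = 0.75) and the gene Mafg (r = 0.73). These are the highest of many values over 36 arrays that share an array's signal and scaling, given as a description with no test.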

How the data were processed

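Agilent Feature Extraction 10.10.1.1 made the processed signals, per the file headers: deposited scanner intensity values, background-subtracted, with flags for probes well above background and for outliers. The deposited value table holds log2 values that the authors normalized between arrays; the submitters' processing notes name limma, and how it was used is not given in the sources used here. Its sorted values were identical across the arrays of a group, and it served as an alternative.

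From 59305 non-control spots, outlier flags (0.1265% of spot readings) were left out, spots of a probe were averaged, and log2 of the processed signal minus the array's 75th percentile was taken. The brightest probe stood for a gene. The filter asked for 5 of 6 arrays well above background in some group (24096 of 37061 genes). Gene names are those of the array, updated through the RefSeq table where the accession matched (32994 probes). limma 3.58.1 in R 4.3.3 was fitted to all 36 arrays with 6 group means and the wash batch, which held all groups, as a term. The 10 genes, the lists and the rule for named genes (of each list, the 2 highest and 2 lowest called, and for 3 genes the 3 most alike) were chosen with earlier results of these data known; 1 gene that the rule names is not reported here. The script was tested on simulated data. Same-numbered mice did not vary together (90 pairs, mean r = -0.0008, 16 above 0.1), so numbers were not taken as pairs. Alternatives were other background corrections, normalizations, filters, probe rules, slide and wash terms, a replicate block and each array left out. No depth applies to arrays.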

Additional observations from a re-analysis of the deposited data

Results flagged for a closer look

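In 2 of 60 groups of 6 mice a single mouse stood far from the others, where chance gives about 1 in 20. Fkbp5 in CTRL CL316243 replicate 6 was 2.29 against at least 3.03 in the 5 others. Zbtb16 in AAKO CL316243 replicate 6 was 3.00 against at most 2.20 in the 5 others.

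The change between states differed between AAKO and CTRL mice, by the interaction term in limma, in 12 cases. For fasted over fed the genotype difference was 1.98 for Sgk1, 2.88 for Dusp1, 2.32 for Zbtb16, 4.76 for Ddit4 and 1.00 for Serpina6, and for CL316243 over fed it was -0.35 for Nr3c1. In these 6 the state is joined to the experiment. For fasted over CL316243 it was 0.57 for Nr3c1, 0.97 for Tsc22d3, 1.64 for Sgk1, 1.68 for Dusp1, 3.00 for Ddit4 and 0.88 for Serpina6.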

How the results depend on the processing

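Of 67 calls on the 10 genes, 27 kept direction and call under every setting tried, 48 did so apart from fits of a single wash batch, and 52 when each array was left out in turn. Calls kept were 67 with normexp background correction, with the stricter filter, with slide as a random block and without the wash term, 64 with quantile normalization, with the authors' value table and with the compared groups fitted alone, 62 without the filter or with slide as a fixed factor, and 61 with the mean of all probes. The causes of the changes below were not tested. Single wash batches hold fewer mice, and several estimates also differed between the batches, as given above.

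In wash batch 2 alone the number of genes called was 5 between fasted genotypes, 0 between CL316243 genotypes, 6 for fasted over fed AAKO, 3 and 2 for CL316243 over fed in CTRL and AAKO, 5 for fasted over CL316243 in AAKO, and 3 and 1 for the genotype difference of fasted over fed and of fasted over CL316243. In wash batch 1 alone it was 1 between CL316243 genotypes, 4 and 3 for CL316243 over fed in CTRL and AAKO, 2 for fasted over CL316243 in CTRL, and 0 pairs of genes covaried. With the mean of all probes 8 genes showed a genotype difference of fasted over fed. The genotype difference of CL316243 over fed had 0 calls without the filter, with slide as a fixed factor, in either wash batch alone and with the replicate block.

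Leaving out 1 array, the count ran from 0 to 0 between fed genotypes, 7 to 9 between fasted and 1 to 3 between CL316243 genotypes, 4 to 7 and 10 to 10 for fasted over fed, 6 to 8 and 4 to 6 for CL316243 over fed, 5 to 8 and 8 to 8 for fasted over CL316243 in CTRL and AAKO, and 5 to 7, 0 to 1 and 4 to 7 for the 3 genotype differences. Without CTRL fasted replicate 2, 2 pairs of genes covaried.

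Values that changed sign were Fkbp5 between fasted genotypes (-0.032) and Tsc22d3 between CL316243 genotypes (0.17) in wash batch 2 alone, Tsc22d3 for fasted over fed AAKO with the mean of all probes (0.073), Zbtb16 for fasted over CL316243 CTRL in wash batch 1 alone (-0.48), and Errfi1 there with slide as a fixed factor (-0.045), in wash batch 1 alone (-0.40) and between -0.073 and 0.15 leaving out 1 array. Hsd11b1 there ran from -0.0058 to 0.22 leaving out 1 array. Ddit4 for fasted over fed CTRL was 0.014 with quantile normalization, 0.064 with the authors' value table, 0.54 in wash batch 2 alone and -0.73 to 0.21 leaving out 1 array.

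With the replicate number as a block 65 of the 67 calls held; those lost were Sgk1 for CL316243 over fed AAKO and the genotype difference of Nr3c1 for CL316243 over fed. Only 4 of 36 mice correlated best with a mouse of their own number. Changes of Nr3c1 are small: fasted over fed AAKO was -0.15 with the authors' value table (adjusted p = 0.097). Over all genes the median of fasted over CL316243 AAKO was -0.15 with normexp and -0.08 in the main scaling, and 31.4% of calls were higher with normexp, 58.2% with the authors' table and 43.5% in the main scaling.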
